A study of Drosophila melanogaster with 2 samples.

Results

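The genes of 10 insulator and promoter-binding proteins of Drosophila melanogaster were examined for sites of H2.0 ChIP-seq signal, out of 13968 protein-coding genes on the 7 chromosome arms of the dm6 build. They are BEAF-32, CTCF, su(Hw), pita, Cp190, mod(mdg4), Chro, Dref, Adf1 and Clamp. The genes were chosen by protein role with the peak values of these same lists already known, so every count and signal value here is a description and none was tested. A gene was counted as covered when the summit of a peak, its highest point, lay in the annotated gene span widened by 1 kb on each side.

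Chromatin immunoprecipitation followed by sequencing (ChIP-seq) recovers the DNA that a protein is attached to and shows where in the genome it came from. The material was whole embryos, 0 to 24 h old, of the strain H2.0-GFP, which carries H2.0 fused to eGFP, and the fusion was precipitated with an antibody to GFP. H2.0 belongs to the homeodomain transcription factors and is best known from visceral muscle. All embryonic tissues and stages were mixed, so the cells in which a site was occupied cannot be told apart. The 2 biological replicates form 1 group, and the labels give no other condition. The control library was not analysed here, so a peak is written of as a site of signal.

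Insulator proteins bind DNA at domain borders and gene promoters and limit which enhancers reach which promoters. BEAF-32, CTCF, su(Hw) and pita bind DNA themselves and bring in shared cofactors, among them Cp190, the mod(mdg4) proteins and Chro. Dref, Adf1 and Clamp bind DNA at promoters, Dref at the DNA replication-related element (DRE) of many housekeeping genes and Clamp at GA repeats, where it helps the male-specific lethal (MSL) complex reach the X chromosome.

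Of the 10 genes, 8 held a summit of the thresholded list made from both replicates together (the joint list), against 28.1% of all protein-coding genes. CTCF and Clamp held none. The replicate 1 list covered 7 of the 10, against 20.9% of protein-coding genes, and the replicate 2 list covered 7, against 22.6%. Both replicate lists covered 6 of the 10, namely BEAF-32, Cp190, mod(mdg4), Chro, pita and Adf1, against 17.7% of protein-coding genes. Since the genes were selected on these peaks, nothing is read from the distance between these counts and the background. The members were also long, with a median span of 4.47 kb against 2.16 kb over all protein-coding genes, and the part of gene length in the counts was not tested.

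The 8 covered genes held 12 summits. Of all 10 genes, 7 had a summit within 500 bp of a transcription start of their own, against 18.2% of all protein-coding genes. The covered gene without one was mod(mdg4), whose summit lay far inside the gene at the start of a nested transcript unit. Of the 12 summits, 5 were in a 5′ UTR, 2 in another exon, 1 in an intron and 4 between genes, and none was in coding sequence. The nearest annotated start was the member's own for 6 summits and that of another gene for the other 6, and 10 of the 12 lay within 200 bp of some start. Within 500 bp of some start lay 10 of the 12 summits, against 46.0% of all 4565. A widened span always takes in the member's own starts, so nothing is read from the distance between these shares. For the classes and the 200 bp distance, shares over all summits are not given here.

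Each peak carries the authors' own signal value, the peak caller's enrichment signal, which is not scaled between lists. The strongest signal per covered gene ran from 64.8 at su(Hw) to 1195 at Chro, with a median of 239. The median over all 4565 peaks on the arms was 94.6, but it is over single peaks and not over the strongest peak per gene. Taking all 12 member summits, 7 were above it. The median percentile of these strongest peaks among all peaks was 87.7. Chro and Adf1 stood at ranks 16 and 20, Cp190, pita, BEAF-32 and mod(mdg4) between 238 and 683, and Dref and su(Hw) below the median of the list. The strongest peaks of the covered genes thus ran from rank 16 to rank 3632 of 4565.

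**Figure D1:**
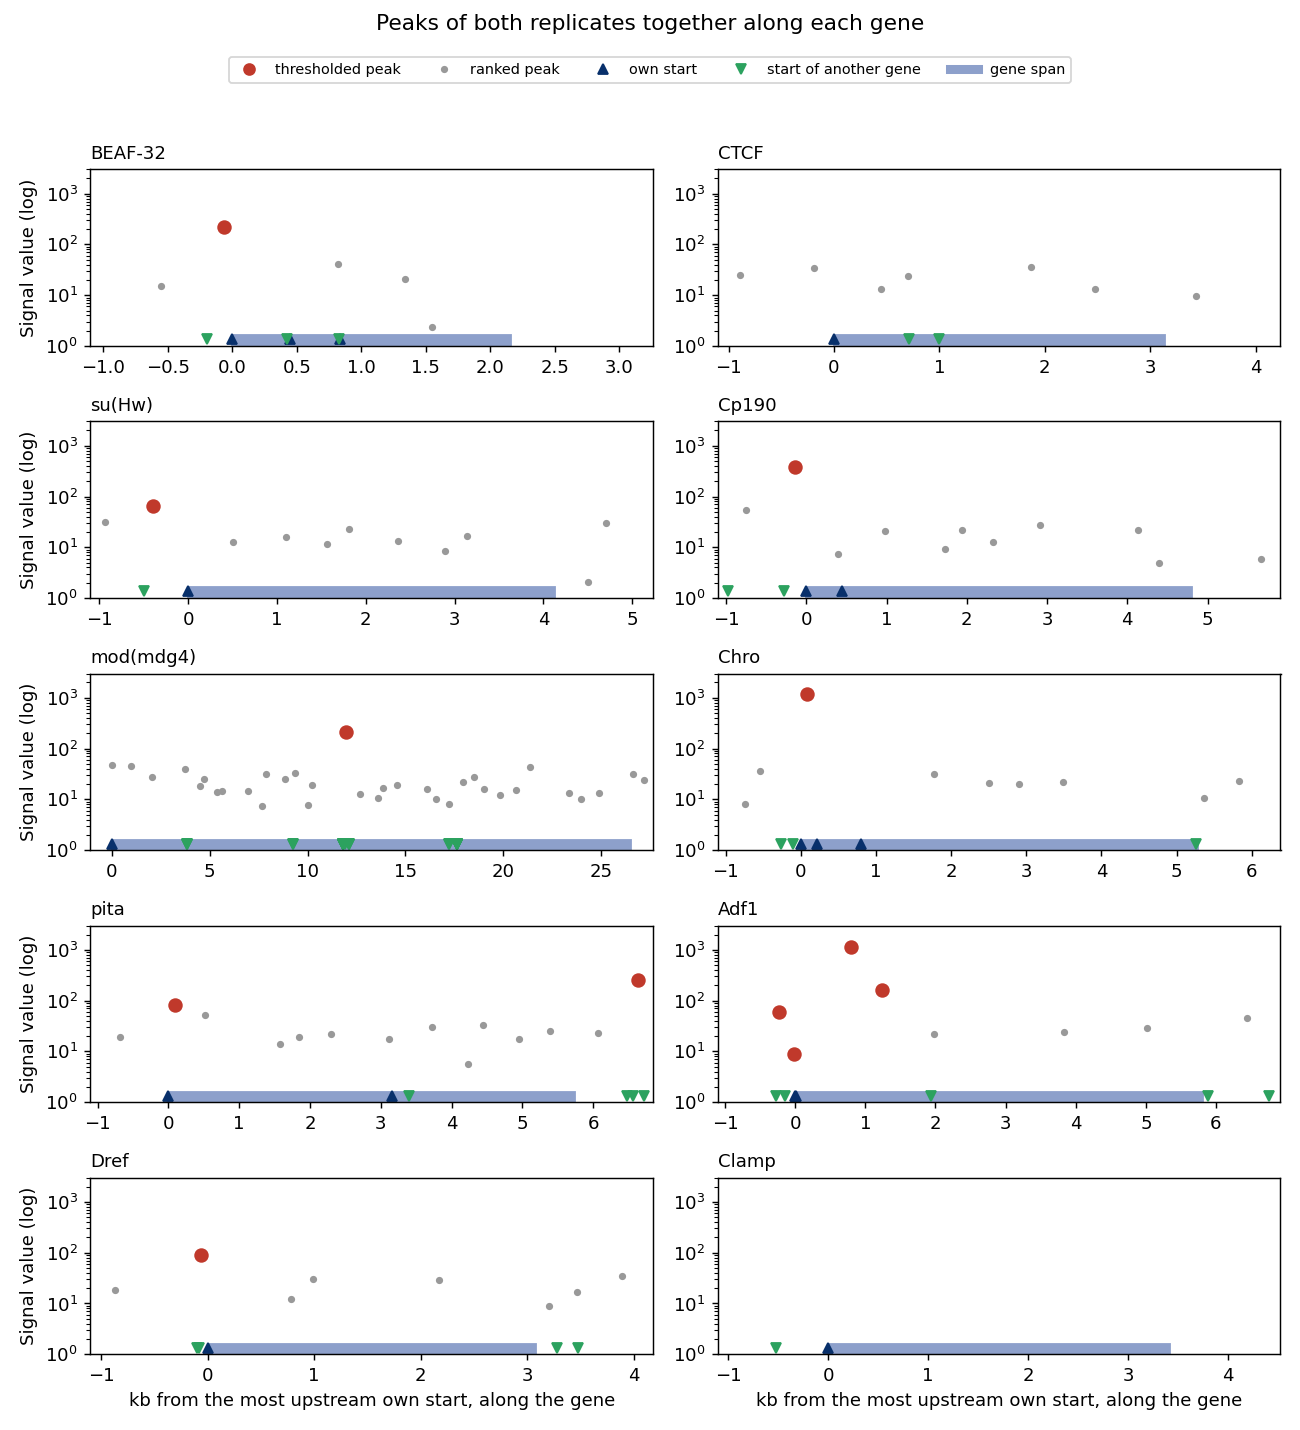
Peaks along each of the 10 genes in the lists of both replicates together, with the signal value on a log axis and the position in kb from the most upstream own start, in the direction of transcription. Large red points are thresholded peaks and small grey points are peaks of the ranked list that missed the threshold; CTCF has only grey points and Clamp has none.

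Signal in the 2 replicates was compared where both replicate lists held a summit within 200 bp of the summit of the joint list. This was so for 7 of the 12 summits, and for 49.2% of all 4565. Over the 2247 peaks shared in this way, the log2 ratio of replicate 2 to replicate 1 signal had a median of −0.13 and an SD of 0.43. The 7 shared peaks at these genes had log2 ratios from −0.61 to −0.03, and 6 of them were within 1 SD of that median. The exception was Cp190, at −0.61, with signal 226 in replicate 1 and 147 in replicate 2. Of the 5 other summits, 4 had a matching thresholded peak in replicate 1 alone and 1, at Dref, in replicate 2 alone. Of those matched in replicate 1 alone, the 2 at Adf1 were matched to the same peak.

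**Figure D2:**
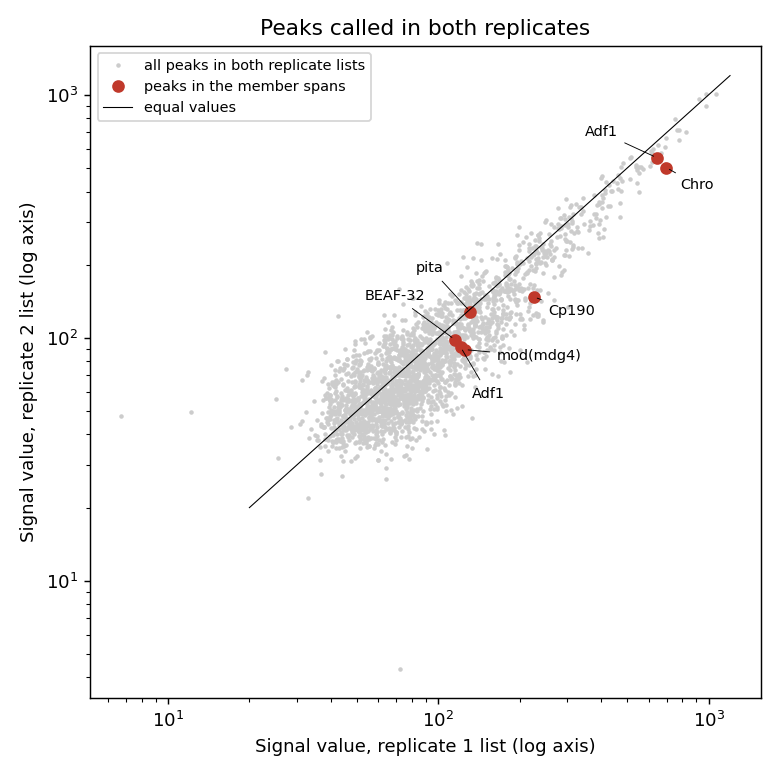
Signal value in the replicate 1 list against the replicate 2 list, both on log axes, for all 2247 peaks in both replicate lists (grey) and the 7 of them at these genes (red); the line marks equal values. The 7 red points lie in the body of the cloud, on or just below the line, and Cp190 is the one farthest below it.

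BEAF-32 encodes a DNA-binding insulator protein that recognises CGATA elements, and its gene lies at chr2R:14770469-14772630 on the plus strand. Its peak, chr2R:14770332-14770468, had its summit 63 bp before the most upstream of 3 own starts and a signal of 222, rank 632. Replicate 1 gave 115.1 and replicate 2 gave 98.4, so the threshold was passed there in both libraries. The summit was inside an exon of the antisense RNA gene asRNA:CR42254, read on the minus strand. This gene has starts 199, 26 and 6 bp upstream of the 3 BEAF-32 starts in turn. Those at 26 and 6 bp lie inside BEAF-32, so the 2 genes overlap. At the third own start, a ranked peak of signal 41.8 with an irreproducible discovery rate (IDR) of 0.432 missed the authors' threshold of 0.01 for thresholded lists; ranked lists also keep the peaks that miss it. The deposited IDR is the global one, the share of peaks expected not to be reproducible among those ranked at least as high. What was compared to give the IDR in the list of a single replicate is not given in the sources used here, so such a value says whether the peak passed in that list and does not compare the 2 replicates.

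pita encodes a zinc finger insulator protein that binds Cp190, and its gene lies at chr2R:23548967-23554712 on the minus strand. It held a pair of summits at opposite ends. The stronger, with signal 256 and rank 493, lay 887 bp past the end of pita and 71 bp into the 5′ UTR of the next gene, wmd, and gave 131 in replicate 1 and 128 in replicate 2. The weaker lay 97 bp inside pita's own 5′ UTR with signal 82.0, rank 2771, and gave 46.0 in replicate 1. Replicate 2 gave 35.4 there with an IDR of 0.0143, just short of the threshold. The summit 887 bp past the end of pita was also the one nearest inside the edge of a widened span, and the nearest outside one was at −1349 bp from mod(mdg4). The peak nearest to pita's own promoter was thus the weaker of the pair, and the stronger was at a neighbour's start.

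CTCF encodes the fly homologue of the vertebrate zinc finger insulator protein, and its gene, chr3L:7353578-7356713 on the minus strand, held no thresholded summit in any list. The ranked list of both replicates, which keeps peaks below the threshold, had 7 summits in the widened span. The strongest had signal 35.8 and an IDR of 0.380, and lay in coding sequence 1864 bp after the start. The strongest ranked peak of the gene was 18.6 in replicate 1, near that place, and 26.4 in replicate 2, at 878 bp before the start. The replicate 2 peak lay in a coding exon of the neighbouring gene pst. So the replicates did not share their strongest site. Replicate 2 did have a weaker ranked summit near the replicate 1 site, at chr3L:7354851 against chr3L:7354837. Taken gene by gene, 44.4% of protein-coding genes had a lower strongest ranked peak than CTCF, and the median over them was 38.2.

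su(Hw) encodes the zinc finger protein of the gypsy insulator, and its gene lies at chr3R:14304455-14308589 on the minus strand. Its peak, chr3R:14308838-14309133, had signal 64.8, rank 3632, and its summit was 397 bp before the su(Hw) start but only 103 bp before that of Polr2I, an RNA polymerase II subunit gene read the other way from 500 bp upstream. Replicate 1 gave 38.0 and passed the threshold, while replicate 2 gave 28.3 with an IDR of 0.218 and did not. The authors' q-value was 0.113. Among the covered genes it had the weakest strongest peak. The 101 bases centred on the summit, chr3R:14308936-14309036 on the minus strand of dm6, are shown because they hold the homeodomain core TAATTA, in capitals, 12 bp from the summit, in a stretch with 23.8% G and C. Of all summit windows of this width, 9.24% held TAATTA. The reference is the RefSeq genome sequence, as for every sequence here.
su(Hw) summit: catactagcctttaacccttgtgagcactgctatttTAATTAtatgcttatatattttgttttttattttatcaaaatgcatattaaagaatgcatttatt

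Cp190 encodes a BTB-domain protein that several DNA-binding insulator proteins bring to chromatin. Its gene lies at chr3R:15270432-15275241 on the minus strand and held 1 summit, in the peak chr3R:15275291-15275507. The signal was 373, rank 238, with 226 in replicate 1 and 147 in replicate 2, both past the threshold. The summit fell 137 bp before the Cp190 start and 144 bp before the start of CG4338, in the 281 bp that separate these divergent genes. A second peak 754 bp before the Cp190 start had signal 54.8 and an IDR of 0.0125, and so missed the threshold narrowly. The window at the summit had 20.8% G and C, and 3.15% of all summit windows had less. The bases between the 2 starts, chr3R:15275242-15275521 on the minus strand of dm6, are shown as the whole of the sequence between the paired promoters. Capitals mark a CGATA core, read on the opposite strand, which lies outside the peak.
Cp190 to CG4338: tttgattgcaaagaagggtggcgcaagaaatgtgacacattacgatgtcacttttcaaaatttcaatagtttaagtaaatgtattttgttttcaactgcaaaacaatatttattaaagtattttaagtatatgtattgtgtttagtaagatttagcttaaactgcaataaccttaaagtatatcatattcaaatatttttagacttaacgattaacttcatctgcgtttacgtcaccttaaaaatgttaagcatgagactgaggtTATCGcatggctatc

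A DRE, TATCGATA, overlaps the Cp190 start 136 bp from the summit, also outside the peak. The A- and T-rich centre of the interval, where the summit lies, held none of the motifs searched within 50 bp. No match says only that these letters are not in this window.

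mod(mdg4) encodes a large family of BTB-domain proteins, of which one form is a partner of su(Hw), and its transcripts are known for being joined by trans-splicing from separate units. The gene spans 26.6 kb at chr3R:21350846-21377401 on the minus strand, with 22 annotated transcripts and 1 start. Its thresholded peak, chr3R:21365313-21365608, lay 11940 bp after that start and 27 bp into the 5′ UTR of pre-mod(mdg4)-E, one of the separately annotated units inside the gene. The signal was 212, rank 683, with 125.0 in replicate 1 and 89.4 in replicate 2. At the start of mod(mdg4) itself a ranked peak of 47.8 had an IDR of 0.783 and did not pass. So the site that passed the threshold in both replicates was an internal start, not the gene's own. The bases just before the internal start, chr3R:21365489-21365588 on the minus strand of dm6, are shown as its immediate upstream sequence, and they hold none of the motifs searched, so no letter is in capitals.
Before pre-mod(mdg4)-E: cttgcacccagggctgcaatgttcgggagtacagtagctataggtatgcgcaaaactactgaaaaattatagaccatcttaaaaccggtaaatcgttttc

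Chro encodes Chromator, a chromodomain protein of polytene interbands and of the mitotic spindle, and it had the strongest peak of the 10 genes. The gene lies at chr3L:22873702-22878984 on the minus strand, and the peak, chr3L:22878755-22879027, had signal 1195 at rank 16 of 4565. Replicate 1 gave 697 and replicate 2 gave 502, both past the threshold, at ranks 10 and 30 of their own lists. Its summit was in the 5′ UTR, 83 bp after the most upstream of 3 own starts. Ssl1, a gene of a TFIIH subunit, is read the other way from 105 bp upstream, and its start was 188 bp from the summit. The CGATA core lay 7 bp from the summit, in a 101-base window; 15.3% of all such windows and 20.8% of those within 500 bp of a start held one. The site, chr3L:22878882-22878906 on the minus strand of dm6, is shown with the core in capitals as TATCG, its reading on the opposite strand. The bases between the starts of Chro and Ssl1, chr3L:22878985-22879088 on the same strand, are shown for the shared promoter interval. Their capitals mark TNAAGTG, the NK class homeodomain core, read on the opposite strand. This core lies 97 bp from the summit, inside the peak but outside the window of 50 bp each side. The interval itself does not hold the summit. Of all windows of 100 bp each side, 14.9% held TNAAGTG.
Chro site: agtttaaagcTATCGacaggcaata
Chro to Ssl1: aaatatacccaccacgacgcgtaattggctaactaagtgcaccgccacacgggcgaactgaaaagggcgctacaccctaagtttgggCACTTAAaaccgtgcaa

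Dref encodes the protein that binds the DRE, and its gene lies at chr2L:9964147-9967229 on the minus strand. The peak, chr2L:9967146-9967441, had signal 91.5, rank 2400, and its summit was 65 bp before the Dref start and 19 bp before the start of RpL13, a ribosomal protein gene read the other way from 84 bp upstream. Replicate 2 gave 66.5 and passed the threshold. Replicate 1 gave 41.6 with an IDR of 0.0128 and just missed it. Dref was the only one of the 10 genes whose thresholded peak passed in replicate 2 and not in replicate 1. The interval between the starts, chr2L:9967230-9967312 on the minus strand of dm6, is shown because both promoters share it. Capitals mark a CGATA core on the opposite strand, just outside the window of 50 bp each side of the summit, and the interval holds no whole DRE.
Dref to RpL13: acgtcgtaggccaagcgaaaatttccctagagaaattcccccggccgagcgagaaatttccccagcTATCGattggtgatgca

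Adf1 encodes a MADF-domain promoter factor first known from the Adh gene, and it held 4 summits of the joint list, the most of the 10 genes. In the conservative joint list, which lacks the 2 at the promoter, it held 2 and pita held 3. It lies at chr2R:6662265-6668085 on the plus strand. The strongest peak, in an intron 785 bp after a start, had signal 1161, rank 20, with 644 in replicate 1 and 551 in replicate 2. A second, 1230 bp after a start and in an exon of lncRNA:CR45128, had signal 161, with 121 and 91.7. Both of these passed in both replicates, and both were away from the promoter. At the promoter, a summit 224 bp before the Adf1 start, in the 5′ UTR of the divergent gene Dpit47, had signal 60.8, and a further summit 14 bp before the start had 8.70. Replicate 1 had a single peak of 31.9 there, matched to both summits, and in replicate 2 neither passed. The q-values of these promoter peaks were 0.175 and 0.894. The summit at 224 bp has a DRE 6 bp away, and it is the only one of the 12 windows to hold a DRE. Of all windows 1.71% held one, and of those within 500 bp of a start 3.28%. The intronic summit has a TAATTA 30 bp away.

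Clamp encodes the GA-repeat-binding zinc finger protein, and its gene, chr2L:22165720-22169143 on the minus strand, had no peak in any list, ranked lists included. No ranked summit of the joint list lay in its widened span, which was so for 7.18% of protein-coding genes. The gap between the flanking ranked summits was 22.9 kb, and the median gap on the arm was 650 bp. In replicate 1 it was 24.4 kb and in replicate 2 it was 18.6 kb, and both gaps take in the whole of Clamp. Of 23869 gaps on the arm in the joint list, 35 were as long. The neighbouring gene lncRNA:CR44809 also lies within the gap of all of these lists, and why the stretch is empty was not tested.

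**Figure D3:**
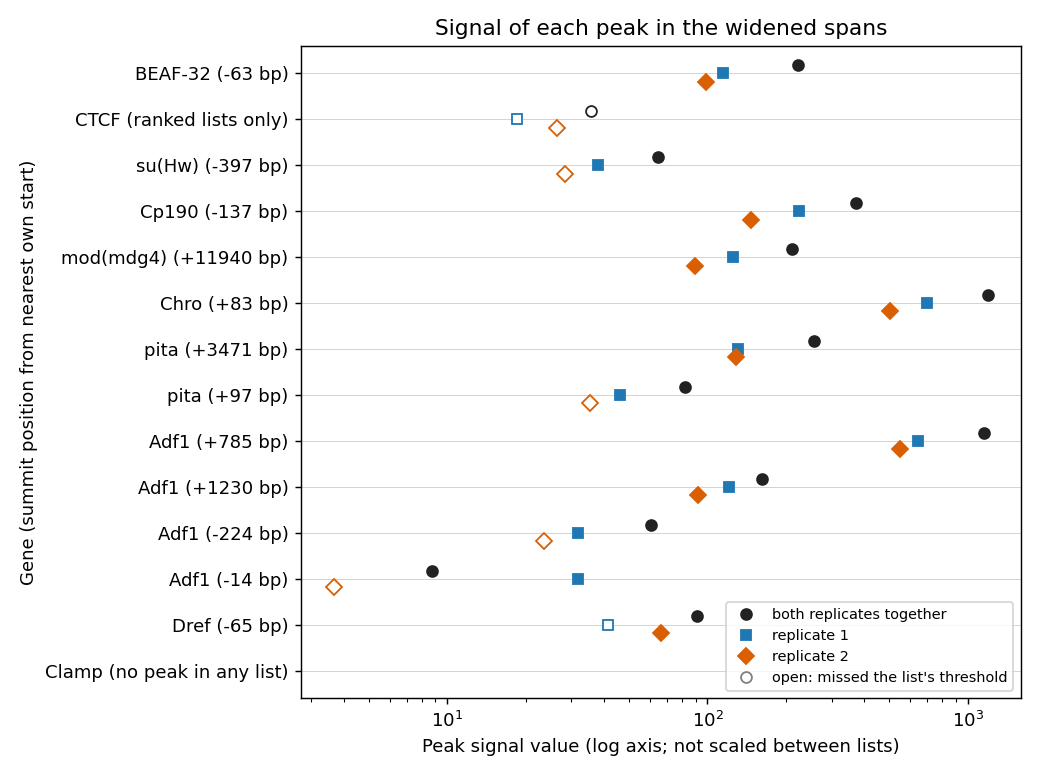
Signal value on a log axis of each thresholded peak of the joint list (circles) with the matching peak of replicate 1 (squares) and replicate 2 (diamonds); open symbols are peaks of the ranked lists that missed the threshold. The joint signal lies above both replicates at all thresholded peaks but the one at Adf1, 14 bp before the start, and at CTCF each open symbol is the strongest ranked peak of its own list.

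Divergent partners, with starts 500 bp apart or less, were found upstream of 6 of the 10 genes (BEAF-32, su(Hw), Cp190, Chro, Adf1 and Dref) and all 6 of these were covered. Such partners were found for 29.6% of protein-coding genes and 44.0% of covered protein-coding genes. Of the 4135 protein-coding genes with such a partner, 1729 were covered. The members were chosen with these peaks known, and the difference was not tested. At 5 of the 6 a single summit lay within 500 bp of both starts, and at Adf1 its 2 weakest summits did, so to which promoter these belong cannot be told apart. The strongest summit of Adf1 was beyond 500 bp from either start. Within 50 bp of the 12 summits, CGATA was in 3 windows (Chro and 2 at Adf1), TAATTA in 2 (su(Hw) and Adf1), the NK core TNAAGTG in 1 (7.58% of all windows) and the CTCF core GCGCCNNCT in 1 (2.34%), both of these at Adf1. The su(Hw) core TGCATAC, the GA repeat GAGAGAG, Motif 1 GGTCACAC and TTTATNG were in none, where 1.66%, 1.03%, 0.898% and 12.2% of all windows held them. Both strands were searched, and TATCGATA contains CGATA. Of the 12 windows, 8 had a share of G and C below the median of all windows, 33.7%, and the 4 above it were those of Dref and 3 of the 4 at Adf1.

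Other genes of architecture and the core promoter came from lists written with earlier results known. Among 21 further insulator and architectural genes, 11 were covered, led by Trl, the GAGA factor gene, with signal 726, JIL-1, a histone kinase gene, with 472, row with 237 and Nup98-96 with 215. Of 9 cohesin and cohesin loader genes, 2 were covered, pds5 with 738 and Mau2 with 130. Of 7 MSL complex genes, 3 were covered, msl-1 with 95.4, lncRNA:roX2 with 88.0 and mle with 85.1, and none of them had its strongest peak in both replicate lists. Of 22 general transcription factor genes, 9 were covered, led by Taf12 with 356, Taf5 with 302, TfIIA-L with 201 and Taf4 with 128. The peaks named for Trl, JIL-1, Taf12, lncRNA:roX2 and mle lay 1524, 7062, 1427, 1360 and 5617 bp from an own start. For the last 3 the nearest start was that of another gene. The same held for the peaks of pds5, Taf5 and TfIIA-L, which lay 178, 160 and 178 bp from an own start. In the order given, 10 of 21, 2 of 9, 1 of 7 and 6 of 22 genes had a summit within 500 bp of an own start. The share over all protein-coding genes was 18.2%. Together 25 of the 59 were covered, or 42.4%, against 28.1% of protein-coding genes, and the difference was not tested.

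**Figure D4:**
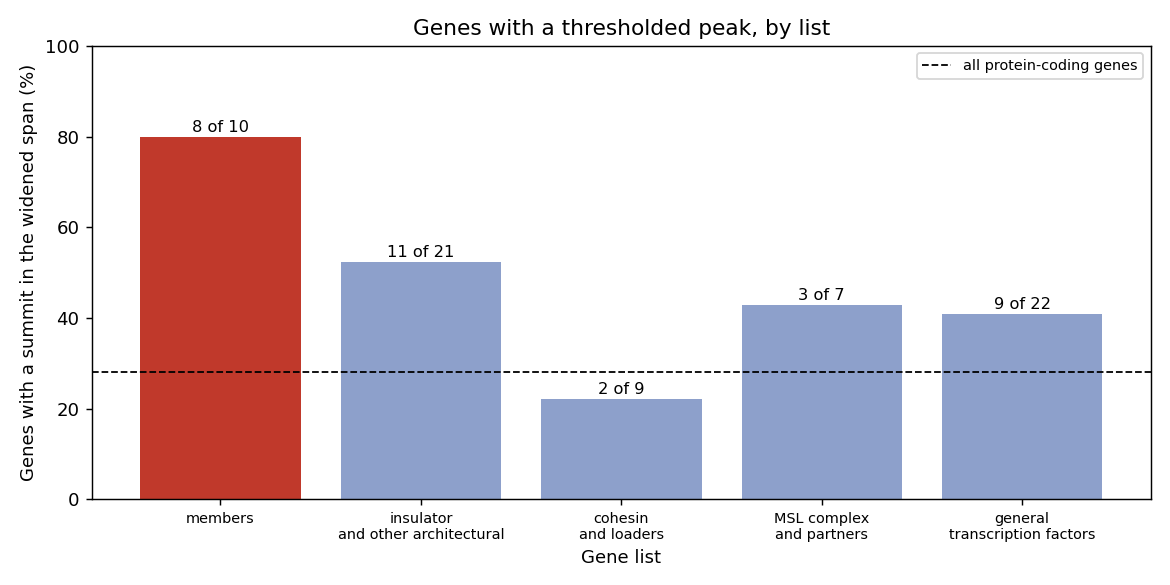
Percent of the genes of each list with a summit of the joint list in the span widened by 1 kb, with the number of genes on each bar and a dashed line at 28.1%, the share over all protein-coding genes. The 10 genes (red) were chosen on these peaks, and the cohesin list, at 22.2%, is the only one under the line.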

How the data were processed

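ChIP-seq peak lists of 2 biological replicates were used, per replicate and for both together (the joint list), each ranked and thresholded, with a conservative joint list beside. The authors' deposited score is the IDR score, and thresholded lists held scores of 830 or more, an IDR of 0.01. The deposited signal is the peak caller's enrichment signal, not scaled between lists, per the labels' file listings and the column order. The deposited −log10 q-values and, in ranked lists, −log10 IDR were used as given. Which peak caller and aligner were used is not given in the sources used here. Reads were not analysed here, so library depth is unknown and counting intervals could not be had. Whether the authors called the joint list on pooled reads is not given either.

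Coordinates are on dm6, per the labels, written 1-based. A summit was the peak start plus the deposited offset. Peaks on the 7 main arms were kept (4565 of 4590). Genes and starts came from Ensembl release 115, and 9 of the 10 gene spans were identical in RefSeq, mod(mdg4) being the exception. Spans were widened by 1 kb, summits within 200 bp were shared, a start within 500 bp was a promoter, and motif windows were 101 bp. The members, gene lists and motifs were chosen with earlier results of these data known. Genes named were all members, up to 4 covered genes of the highest signal per other list, and genes next to a member's peak. Python 3.11.15 with numpy 2.4.6, pandas 2.3.3 and matplotlib 3.10.9 was used, and the counting was checked on simulated peaks. With 1 group, no test was made. Alternatives were the peak list, a stricter threshold, and the distances.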

Additional observations from a re-analysis of the deposited data

Results flagged for a closer look

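The conservative joint list held a peak of pita that the other joint list lacks. Its summit was 519 bp after a pita start, in an intron, with signal 52.0 and a deposited q-value of 0.407. It was flagged because no comparison above uses that list's extra peaks. In the ranked lists the same place gave 30.7 in replicate 1 with an IDR of 0.160 and 25.8 in replicate 2 with an IDR of 0.817, so neither replicate passed the threshold there. The conservative list in turn lacks 2 peaks of the other joint list, the Adf1 summits 224 bp and 14 bp before the start, with signals 60.8 and 8.70. In it Adf1 held 2 summits and pita 3, and 6 of the 10 genes had a summit at an own start in place of 7. The share over all protein-coding genes in the conservative list is not given here.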

How the results depend on the processing

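Of 48 alternative values over 10 results, 37 were classed as the same as the value reported and 11 as moved. The class of the same is broad. It takes in 8 summits in place of 12 with the replicate 2 list alone. It also takes in 30.5% of the other lists in place of 42.4% with the replicate 1 list alone. With the gene span not widened, 4 genes were covered in place of 8, 5 summits were counted in place of 12, and the other lists fell to 18.6% from 42.4%. The share over all protein-coding genes without widening is not given here, and the 28.1% above is for spans widened by 1 kb. Keeping only peaks at or above the median signal left 7 summits, 5 genes with a promoter summit in place of 8, and 3 genes with a summit at an own start in place of 7. With 1 replicate list alone, genes with a summit at an own start ranged from 4 to 6, the lower value from replicate 2, and the median percentile from 82.7 to 85.9. For the gene counts at or above the median signal and with 1 replicate list, shares over all protein-coding genes are not given here either. With windows of 100 bp each side, 6 of the 12 held CGATA in place of 3, against 27.3% of all windows and 36.1% of those near a start. At 150 bp each side 10 of the 12 held it, against 36.8% and 46.7%. A DRE was in 4 windows at 150 bp in place of 1, against 4.45% of all windows and 9.04% of those near a start. The shares over all windows also rose with width, and no difference was tested. No paired analysis was possible because there is 1 group and no test was made. Depth was unknown, signal is not scaled between lists, and 2 replicates limit what their spread can show.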

Other observations

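Just outside the widened span of mod(mdg4), at −1349 bp from its start, a peak of signal 381 lay at −227 bp from the start of tin, the tinman homeodomain gene of heart and visceral muscle. It was stronger than the peak inside mod(mdg4), at 212. Past the end of Chro, a peak of 63.0 lay 44 bp into Arf1. Neither was counted above.

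With windows of 150 bp each side of the summit, a DRE was found at BEAF-32, Cp190, the summit of pita at wmd, and Adf1, in 4 of 12 windows, where 4.45% of all windows and 9.04% of those near a start held one. The members were chosen with these peaks known, and the difference was not tested. At BEAF-32 the DRE lay 144 bp from the summit, at Cp190 136 bp and at pita 108 bp, all outside the peak. Only the one at Adf1, 6 bp from the summit, lay inside the peak.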
